A study of Homo sapiens with 4 samples.

Results

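GDF15, FGF21, ADM2, STC2, NUPR1, DDIT4, SESN2, VLDLR, EIF4EBP1 and CTH are genes placed below the transcription factor ATF4, and several of them encode secreted stress hormones or brakes on the growth kinase complex mTORC1. They were taken by gene symbol, through GENCODE release 29, and make up 10 of the 57500 genes counted. RNA-sequencing compared parental SUM159 cells with 3 NOS2KO SUM159 clones, numbered 1, 5 and 6 in the labels, with 1 library of each and no drug treatment named for any of them. SUM159 is a human cell line from a triple-negative, metaplastic breast cancer (MpBC). NOS2 encodes inducible nitric oxide synthase (iNOS). It was targeted with a CRISPR nickase plasmid, and after puromycin selection the clones were picked by iNOS immunoblot and by a nitrite and nitrate assay. Each clone is a separate line grown from selected cells, and the parental library carries no selection control, so NOS2 loss, selection and clonal origin cannot be told apart here.

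When amino acids run short or proteins misfold, kinases phosphorylate eIF2α, most translation slows and ATF4 is made. ATF4 switches on genes for amino acid supply, hormones that report the stress to other tissues, and proteins that hold back mTORC1, the complex that promotes translation when nutrients are plentiful. In cancer cells this integrated stress response is known to sustain amino acid supply and redox balance in poorly fed tumors.

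The libraries held 90467395 (parental) to 122171287 (clone 1) counts on genes, so all but FGF21 and ADM2 had at least 274 counts in every library. NOS2 mRNA had 2 counts in parental cells and 3, 18 and 1 counts in the clones labelled 1, 5 and 6. It therefore checks no label, and the clones are named below by their labels. The cells expressed the epithelial keratins KRT8 (254 to 806 CPM, TMM-scaled counts relative to the size of the library) and KRT18. They also expressed the mesenchymal genes VIM (1655 to 3855 CPM), CD44 and FN1 (2155 to 3006 CPM). Of the receptor markers, ESR1 and PGR were under 1 CPM in all 4 libraries. ERBB2 had 48.3 CPM in parental cells and 55.6 to 106.2 CPM in the clones. The other epithelial markers were low, with EPCAM at 0.0523 to 0.284 CPM and CDH1 at 0.00872 to 0.413 CPM over the 4 libraries and KRT5 at 0.0507 to 5.75 CPM. KRT14 had 3.96 CPM in parental cells and 0 to 0.209 CPM in the clones, and it met the criterion described next as lower. Of the haematopoietic markers, PTPRC had 4.45 CPM in parental cells and 41.7 to 105.4 CPM in the clones, and it met the same criterion as higher. CD14 had 12.8 CPM in parental cells and 2.29 to 11.3 CPM in the clones, and CD3E had 0 CPM in parental cells and at most 0.075 CPM in a clone. Of the endothelial markers, PECAM1 had 16.1 CPM in parental cells and 7.06 to 13.9 CPM in the clones. CDH5 (0.0111 CPM in parental cells, 0.105 to 3.49 CPM in the clones) and VWF (0.210 CPM, and 0.279 to 3.80 CPM) were higher in every clone, and neither met the criterion. Such an order was seen in 28.6% of all tested genes, and CDH5 had only 1 count in parental cells, under the floor of 3 counts. The part of these markers in the results was not tested. In bulk RNA, fewer cells of a type and less RNA per cell cannot be told apart.

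All of the 10 genes except VLDLR were lower in every clone, and VLDLR was higher in every clone. Of all tested genes, 30.5% were lower in all 3 clones. Together the 10 genes took 0.291% of all counts in parental cells, and 0.0691%, 0.0604% and 0.0520% in the clones labelled 1, 5 and 6. The legend of the study's volcano plot gives p under 0.05 and a log2 fold change beyond 1, from a Wald test. These thresholds, applied to edgeR's unadjusted p, are the criterion used here. By it, 9 of 10 genes were lower and 0 were higher in the clones. Of all 22511 genes tested with edgeR, 9.58% met this criterion, 5.34% as lower and 4.24% as higher. The median fitted log2 fold change of the 10 genes was -3.31, against 0.10 over all tested genes. After Benjamini-Hochberg adjustment, edgeR's quasi-likelihood test left 0 of the 10 genes under 0.05 (0.00444% of all tested genes, namely INHBE), although 9 of the 10 had an unadjusted p under 0.05 (11.5% of all tested genes). DESeq2's Wald test called 8 of 10 after the same adjustment, against 6.18% of the genes it adjusted. These p-values measure the spread between the 3 clones, which is assumed to hold for the single parental library, and the exact permutation test of 1 library against 3 cannot go below p = 0.25.

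**Figure D1:**
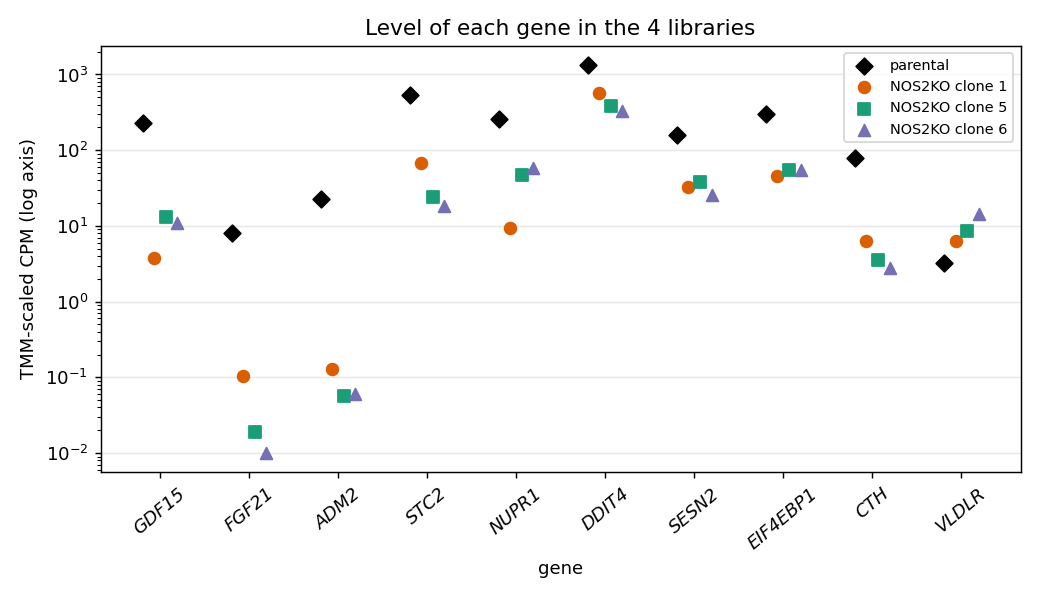
TMM-scaled CPM (log axis) of the 10 genes in the parental library (diamond) and in NOS2KO clones 1 (circle), 5 (square) and 6 (triangle), 1 point per library. The parental point lies above all 3 clones for every gene except VLDLR, where it lies below them (3.25 CPM against 6.30 to 14.4 CPM).

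Among the hormones, GDF15, a TGFβ family protein that acts on the brainstem to reduce appetite, lies at chr19:18374731-18389176 (GRCh38, plus strand). It was measured at 230.2 CPM in parental cells, against 3.72, 13.2 and 10.9 CPM in the clones labelled 1, 5 and 6. The clones thus averaged 9.28 ± 4.94 CPM (SD, n = 3), about 24.8-fold under the parental value. The groups did not overlap, and clone 1 had the least GDF15. The fitted log2 fold change was -4.63 with a standard error (SE) of 0.72, with a Benjamini-Hochberg adjusted p of 0.273 in edgeR.

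RefSeq promoter windows (GRCh38.p14, 250 bases before to 50 after the start) were found for 8 of the 10 genes, NUPR1 and EIF4EBP1 being the exceptions. GDF15 was the only gene of the 8 whose window held TATAAA, a form of the TATA box present in 11.6% of the 34796 different windows. The 85 bases before its RefSeq start (chr19:18386073-18386157, plus strand) are shown for that motif, in capitals.
GDF15: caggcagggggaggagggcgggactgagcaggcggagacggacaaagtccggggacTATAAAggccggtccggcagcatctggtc

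FGF21, a fasting and stress hormone that acts through FGF receptors with the coreceptor β-Klotho (KLB), lies at chr19:48755559-48758330 on the plus strand. Its counts were 738 in parental cells, against 12, 2 and 1 in the clones labelled 1, 5 and 6. In CPM this was 8.16 in parental cells, against 0.105, 0.0188 and 0.0101 in those clones. Parental cells thus had a modest but clear FGF21 signal, while the clones labelled 5 and 6 were at or under the floor of 3 counts. Set against parental cells, the log2 ratio of clone 1 was -6.29 (95% interval -7.25 to -5.47). That of the clone labelled 5 was -8.77 (-11.81 to -6.91) and that of clone 6 was -9.65 (-14.96 to -7.17). These exact Clopper-Pearson intervals cover counting error only. The fitted log2 fold change was -7.46 (SE 1.23) and was -9.01 without clone 1. The Benjamini-Hochberg adjusted p in edgeR was 0.275.

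The FGF21 window was the only one of the 8 to hold TGATGNAA, the core of the C/EBP-ATF response element (CARE) that ATF4 binds together with C/EBP partners. This motif, searched on both strands, is in 3.63% of all windows. It reads TTGCATCA on the gene's own strand, at chr19:48755470-48755477, with 46 bases between it and the RefSeq start of FGF21. The 133 bases between FUT1 and that start (chr19:48755391-48755523) are shown with the motif in capitals, as a description and not as a measured binding site.
FGF21: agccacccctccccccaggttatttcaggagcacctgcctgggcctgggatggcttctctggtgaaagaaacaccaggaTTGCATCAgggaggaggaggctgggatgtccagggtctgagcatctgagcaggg

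FUT1, a fucosyltransferase that makes the blood group H antigen, is read in the opposite direction from the other end of this stretch, with 168 bases between the genes as the files place them. It was singled out after its values were seen. FUT1 had 19.8 CPM in parental cells, against 0.183, 0.441 and 0.649 CPM in the clones labelled 1, 5 and 6. All 3 clones were lower than the parental library, and FUT1 met the criterion with a fitted log2 fold change of -5.54 (SE 0.78).

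ADM2 (intermedin), a vasodilator peptide of the calcitonin family, lies at chr22:50481556-50486440 on the plus strand. It had 2041 counts in parental cells, against 15, 6 and 6 in the clones labelled 1, 5 and 6. This was 22.6 CPM in the parental library against 0.0563 to 0.131 CPM in the clones. Its fitted log2 fold change was -8.07 (SE 0.64). Its Benjamini-Hochberg adjusted p in edgeR was 0.259. With so few counts the clones could not be ordered, since the intervals of all 3 ratios between clones included 0.

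STC2, a secreted glycoprotein that inhibits the protease PAPP-A and so restrains IGF release, lies at chr5:173314713-173329503 on the minus strand. It had 534.4 CPM in parental cells, against 68.6, 24.1 and 18.1 CPM in the clones labelled 1, 5 and 6. Clone 1 kept the most STC2, the reverse of GDF15. The clones averaged 36.9 ± 27.6 CPM (SD, n = 3), the fitted log2 fold change was -3.85 (SE 0.82, or -4.66 without clone 1), and the adjusted p by edgeR with Benjamini-Hochberg adjustment was 0.308.

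The mTORC1 brakes DDIT4 and SESN2 had fitted log2 fold changes of -1.63 and -2.31, and the translation repressor EIF4EBP1 had -2.54. These were smaller in size than those of the 4 hormones (-3.85 to -8.07), a difference between genes that was not tested. DDIT4 (REDD1), which restrains mTORC1 through the TSC complex, lies at chr10:72273920-72276036 on the plus strand. It had 1322 CPM in parental cells, against 563.1, 385.2 and 329.8 CPM in the clones labelled 1, 5 and 6. All 3 clones were lower, yet DDIT4 remained an abundant transcript in each. The clone mean was 426 ± 122 CPM (SD, n = 3) and the fitted log2 fold change -1.63 (SE 0.43), with an adjusted p of 0.332 by edgeR with Benjamini-Hochberg adjustment. DDIT4-AS1, an antisense gene that overlaps 41.2% of DDIT4's exon bases, had 0 counts in all 4 libraries, and the strand setting of the counting is not given in the sources used here.

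The DDIT4 window was the only one of the 8 with ACGTG, the core that hypoxia-inducible factors bind (21.4% of all windows hold it on either strand). It also held 2 copies of CCAAT, read on the other strand. CCAAT was in the windows of 5 of the 8 genes, SESN2, CTH, STC2, DDIT4 and GDF15, against 34.6% of all windows. TGACGTCA, the cyclic AMP response element, was in 0 of the 8 windows and in 1.84% of all. The DDIT4 stretch at chr10:72273770-72273919 is shown with these motifs in capitals, ACGTG first and then both copies of ATTGG, the reverse complement of CCAAT.
DDIT4: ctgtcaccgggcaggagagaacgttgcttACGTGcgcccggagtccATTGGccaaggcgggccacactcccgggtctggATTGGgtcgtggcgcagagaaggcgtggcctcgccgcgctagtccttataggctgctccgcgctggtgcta

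SESN2, a leucine sensor that blocks mTORC1 activation at the lysosome, lies at chr1:28259527-28282491 on the plus strand. It had 158.6 CPM in parental cells, against 32.9, 37.8 and 25.5 CPM in the clones labelled 1, 5 and 6. The clones lay close together at 32.0 ± 6.19 CPM (SD, n = 3), about 4.95-fold under the parental library. The fitted log2 fold change was -2.31 (SE 0.33), with an adjusted p of 0.259 by edgeR with Benjamini-Hochberg adjustment.

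EIF4EBP1 encodes 4E-BP1, which binds the cap-binding protein eIF4E and blocks cap-dependent translation until mTORC1 phosphorylates it. The gene lies at chr8:38030341-38060365 on the plus strand. It had 299.5 CPM in parental cells, against 45.3, 54.9 and 54.2 CPM in the clones labelled 1, 5 and 6. On the log2 scale its range over the clones was the smallest of the 10 genes, at a mean of 51.5 ± 5.33 CPM (SD, n = 3). The log2 ratio between the clones labelled 5 and 6 was 0.02, with a counting interval of -0.04 to 0.07. The fitted log2 fold change against the parental library was -2.54 (SE 0.28), with an adjusted p of 0.259 by edgeR with Benjamini-Hochberg adjustment.

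Of the remaining genes, CTH encodes cystathionine γ-lyase, which releases cysteine at the end of the transsulfuration pathway, and lies at chr1:70411218-70439851 on the plus strand. It had 78.4 CPM in parental cells, against 6.39, 3.59 and 2.78 CPM in the clones labelled 1, 5 and 6. The clone mean of 4.25 ± 1.89 CPM (SD, n = 3) was about 18.4-fold lower, with a fitted log2 fold change of -4.20 (SE 0.55) and an adjusted p of 0.259 by edgeR with Benjamini-Hochberg adjustment. CTH was thus nearer to the hormones than to the brakes in the size of its difference.

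NUPR1, a small stress-induced nuclear protein, lies at chr16:28532708-28539174 on the minus strand. It had 257.5 CPM in parental cells, against 9.34, 47.1 and 57.4 CPM in the clones labelled 1, 5 and 6. All 3 clones were lower, and clone 1 stood apart from the other clones. The fitted log2 fold change was -2.76 with an SE of 0.98, the largest SE after that of FGF21. The adjusted p was 0.378 by edgeR with Benjamini-Hochberg adjustment.

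VLDLR, a lipoprotein receptor that also binds reelin, lies at chr9:2621834-2660053 on the plus strand and was the exception in direction. It had 3.25 CPM in parental cells, against 6.30, 8.64 and 14.4 CPM in the clones labelled 1, 5 and 6. All 3 clones were above the parental library without overlap, and such an order was seen in 28.6% of all tested genes. The fitted log2 fold change was 1.59 (SE 0.60), which missed the criterion with an unadjusted p of 0.0638 by edgeR. It met the criterion with DESeq2's Wald test (1.61), with no expression filter (1.61) and without clone 1 (1.83). VLDLR-AS1, an antisense gene overlapping 7.90% of the exon bases of VLDLR, had 7 counts in the parental library and 15 to 42 in the clones.

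The comparison of each clone with the parental library gave the same count of genes on the lower side. A log2 ratio below -1 was found for 9 of the 10 genes in each clone. Of all tested genes, 20.2%, 14.7% and 16.7% were below -1 in the clones labelled 1, 5 and 6, and of those reaching 10 CPM in the pair, 11.1%, 12.8% and 12.3% were. VLDLR was above 1 in the clones labelled 5 and 6 (21.3% and 19.3% of all tested genes). In clone 1 its log2 ratio was 0.95, and 17.1% of all tested genes were above 1. The median log2 ratio of the 10 genes was -3.29 in the clones labelled 1 and 5, and -3.52 in clone 6. All 3 comparisons share the parental library, so they are not independent of each other.

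**Figure D2:**
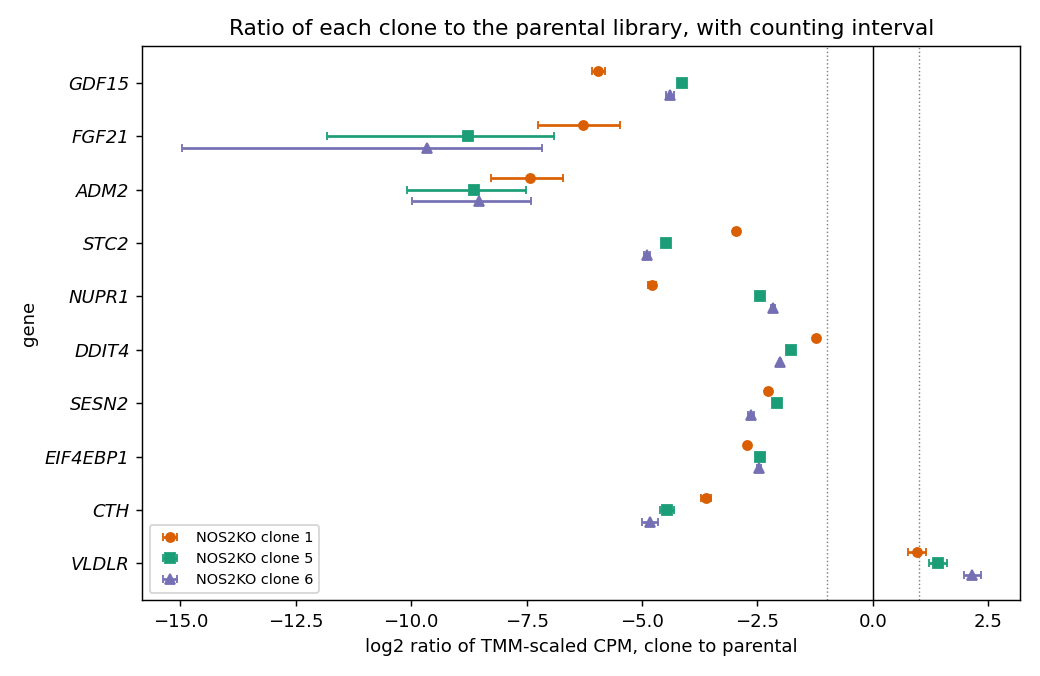
Log2 ratio of TMM-scaled CPM of each NOS2KO clone to the parental library for the 10 genes, with exact 95% counting intervals as bars, where the solid line marks no difference and the dotted lines a log2 ratio of 1 in either direction. Ratios run from -9.65 (FGF21 in clone 6) to 2.15 (VLDLR in clone 6), and the intervals are wide only for FGF21 and ADM2, which had 15 counts or fewer in each clone.

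**Figure D3:**
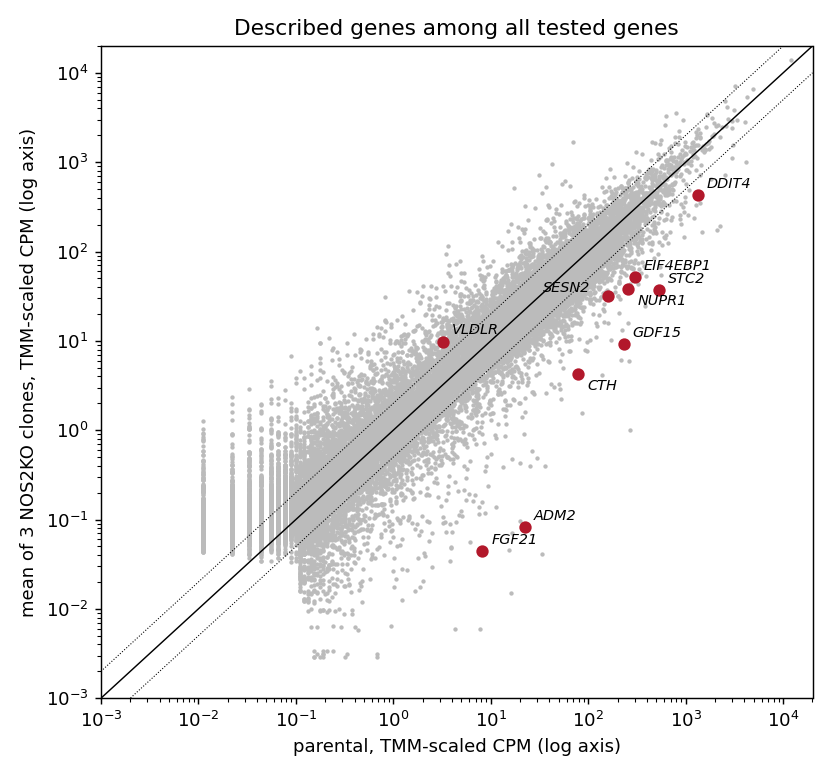
Level in the parental library against the mean of the 3 NOS2KO clones (TMM-scaled CPM, log axes) for the 22076 tested genes above 0 on both axes (grey), with the 10 genes in red, the solid line at equality and the dotted lines at a log2 difference of 1. All genes but VLDLR lie under the lower dotted line and VLDLR lies above the upper one.

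The clones themselves differed in which of the 10 genes they kept. Clone 1 had the highest level of the clones for FGF21, STC2, DDIT4 and CTH and the lowest for 4 genes (GDF15, NUPR1, VLDLR and EIF4EBP1), while ADM2 had too few counts to order the clones. The log2 ratio of clone 1 to the clone labelled 5 was 1.51 for STC2 and 0.83 for CTH, but -1.83 for GDF15 and -2.33 for NUPR1. Against clone 6, the same ratios of clone 1 were 1.93 for STC2, 1.20 for CTH, -1.55 for GDF15 and -2.62 for NUPR1. Clone 1 thus had the most STC2 and CTH and the least GDF15 and NUPR1 of the clones. Clone 1 differed from the clone labelled 5 by a log2 ratio beyond 1 in 5 of the 10 genes, and from clone 6 in 7 of 10. The backgrounds for these counts were 32.5% and 32% of all tested genes, or 16.1% and 15.9% of those reaching 10 CPM. The clones labelled 5 and 6 differed that far in 0 of the 10 genes, against 21% of all tested genes and 4.92% of those reaching 10 CPM. Both counts for clone 1 include FGF21 and ADM2, which had 15 counts or fewer in each clone, and the ADM2 intervals included 0. FGF21, ADM2 and CTH did not reach 10 CPM in any clone, so the shares at 10 CPM do not cover them. VLDLR reached 10 CPM only in clone 6. With 1 library per clone these differences carry counting error only and no test.

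**Figure D4:**
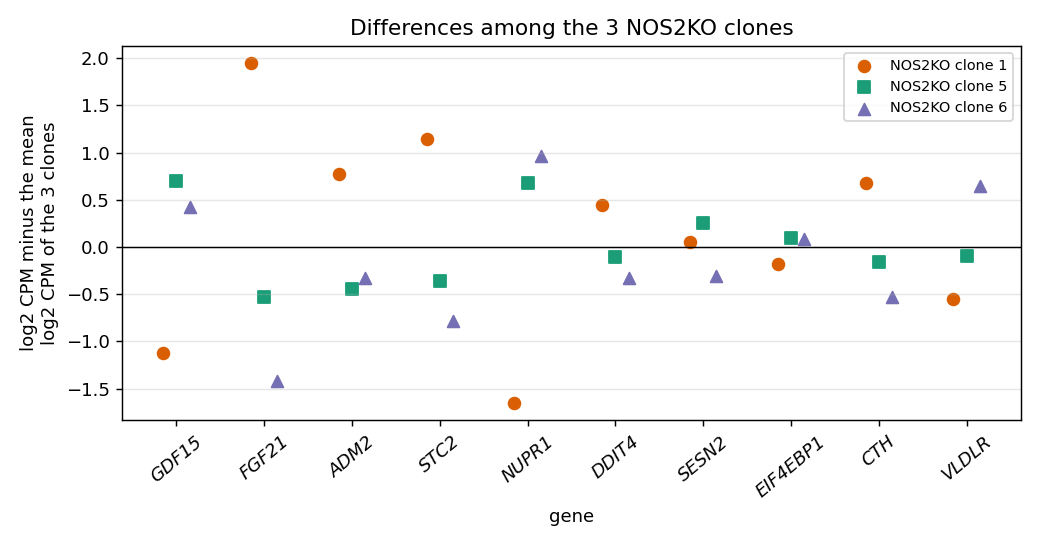
Log2 CPM of each gene in each NOS2KO clone minus the mean log2 CPM of the 3 clones, 1 point per clone. Clone 1 (circle) lies well above the other clones for FGF21, STC2 and CTH and well below them for GDF15 and NUPR1, while the points for EIF4EBP1 and SESN2 stay within 0.4 of the mean.

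Per kilobase of exon, the order of the levels was DDIT4 (642.6 CPM per kb), EIF4EBP1 (279.1), GDF15 (110.3), STC2 (87.2), SESN2 (45.9), NUPR1 (45.4), CTH (32.5), FGF21 (6.22), ADM2 (5.28) and VLDLR (0.348) in the parental library. SESN2 and NUPR1 were neighbours in this order and nearly equal. The exon lengths used, 3453 bases for SESN2 and 5674 for NUPR1, come with the deposited counts, and the order depends on them. In the clone means DDIT4 (207.0) and EIF4EBP1 (48.0) stayed at the top, and GDF15 (4.44) moved from place 3 to place 6. VLDLR (1.05) was above both FGF21 (0.0339) and ADM2 (0.0193) in the clone means, the reverse of the parental order. SESN2, NUPR1, STC2 and GDF15 had clone means of 9.28, 6.68, 6.03 and 4.44 CPM per kb, and the last 3 differed from each other by less than the SD of NUPR1 or STC2 over the clones.

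Upstream of these genes, ATF4 mRNA itself was lower in each clone. It had 593.2 CPM in parental cells, against 157.1, 248.1 and 273.5 CPM in the clones labelled 1, 5 and 6, with a fitted log2 fold change of -1.39 (SE 0.42). The median log2 fold change of 16 integrated stress response factors was -1.60. Of these factors, 8 met the criterion as lower and 0 as higher, against 5.34% and 4.24% of all tested genes. They included INHBE, a further secreted factor (-8.03), the glutathione-degrading enzyme CHAC1 (-5.79), the pseudokinase TRIB3 (-3.96) and DDIT3, also called CHOP (-3.34). None of the 4 eIF2α kinases met the criterion. Of 18 ATF4 genes for amino acid synthesis and uptake, 13 met it as lower and 0 as higher, with a median of -2.64. ASNS (-3.98), SLC7A5 (-3.52), PSAT1 (-3.37) and GPT2 (-3.35) had the largest differences, and they serve asparagine synthesis, leucine uptake, serine synthesis and alanine metabolism.

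**Figure D5:**
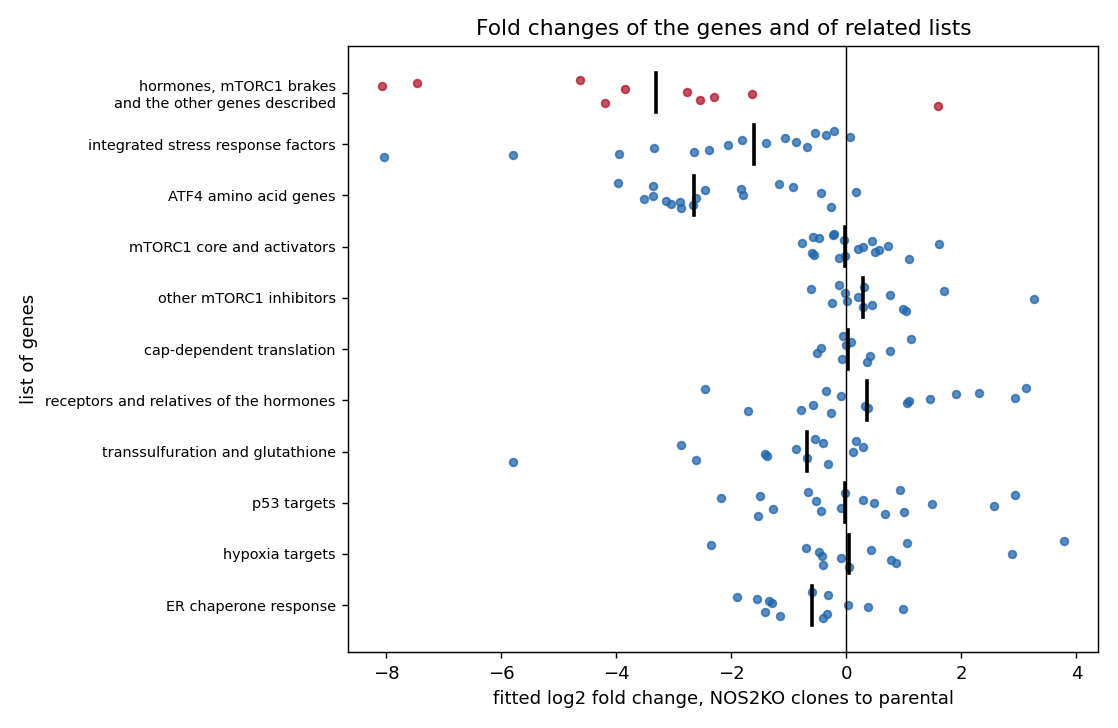
Fitted log2 fold change of the NOS2KO clones against the parental library for each tested gene of 11 lists, 1 point per gene, with a black bar at the median of each list. The medians are -3.31 for the 10 hormone, brake and other genes (red), -2.64 for the ATF4 amino acid genes and -1.60 for the stress response factors, against -0.03 for the mTORC1 core, and CHAC1, SLC7A11, CBS, SESN1 and ADM appear in 2 lists each.

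Around CTH, CBS, which catalyses the step before it, had 6.43 CPM in parental cells, against 0.235, 1.46 and 0.943 CPM in the clones labelled 1, 5 and 6. Its fitted log2 fold change was -2.87 (SE 1.05). Of 13 tested genes of transsulfuration and glutathione metabolism, 5 met the criterion as lower and 0 as higher, with a median of -0.69. Over all tested genes, 5.34% met the criterion as lower. Beside CHAC1 and CBS the 5 were the cystine carrier SLC7A11 (-2.61) and both subunits of glutamate-cysteine ligase, GCLC (-1.42) and GCLM (-1.38). CHAC1 was already counted among the stress response factors, and CBS and SLC7A11 among the ATF4 amino acid genes.

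The mTORC1 machinery that the brakes act on was also counted. Of 18 core subunits and activators of mTORC1, 0 met the criterion as lower and 2 as higher, with a median of -0.03. The 2 were the Rag GTPase RRAGD (1.61) and the GATOR2 subunit SEC13 (1.10). They were 11.1% of the list, against 9.58% of all tested genes. Without clone 1 the count of this list was 3, with 1 lower and 2 higher. Without the clone labelled 5 it was 0, and without clone 6 it was 1. Of 14 other mTORC1 inhibitors, 0 met the criterion in either direction, but 1 did with DESeq2 and 2 did without clone 1. DEPTOR, an inhibitor that binds mTOR and was singled out after its values were seen, had 4.93 CPM in parental cells, against 8.09, 63.6 and 69.7 CPM in the clones labelled 1, 5 and 6. Its fitted log2 fold change was 3.26 (SE 1.16), with an unadjusted p of 0.0739 in edgeR. SESN1, the closest relative of SESN2 with SESN3, had 16.6 CPM in the parental library and 15.6 to 17.7 CPM in the clones, and its sign changed between scalings. SESN3 had 2.21 CPM in parental cells, against 6.79, 3.89 and 0.538 CPM in the clones labelled 1, 5 and 6, so the groups overlapped. Of 10 genes of cap-dependent translation, only EIF4EBP2, the paralog of EIF4EBP1, met the criterion, and it was higher. That is 10% of the list, close to the 9.58% of all tested genes. EIF4EBP2 had 81.0 CPM in parental cells, against 140.2, 187.5 and 204.5 CPM in the clones labelled 1, 5 and 6 (fitted log2 fold change 1.13, SE 0.34). It did not meet the criterion without the clone labelled 5 or without clone 6, and 2 genes of the list met it without clone 1. EIF4EBP1 and EIF4EBP2 thus lay on opposite sides of the parental library in every clone.

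Of 16 tested receptors and relatives of the hormones, 1 met the criterion as lower and 2 as higher, with a median of 0.35. Over all tested genes, 5.34% met it as lower and 4.24% as higher. The 2 of the list that were higher, CALCRL and RAMP1, encode a receptor and an accessory protein that together bind peptides of the ADM2 family. CALCRL had 0.620 CPM in parental cells, against 4.17, 2.65 and 7.32 CPM in the clones labelled 1, 5 and 6, while RAMP1 had 7.10 CPM in the parental library and 16.4 to 21.3 CPM in the clones. The FGF21 coreceptor KLB was lower and close to the floor, with 37 counts in parental cells, against 14, 7 and 3 counts in the clones labelled 1, 5 and 6 (0.409 CPM against 0.0304 to 0.122 CPM). GFRAL, the GDF15 receptor, and FGF19, a relative of FGF21, had 0 counts in all 4 libraries. None of the list met the criterion without clone 6, and 5 did without clone 1. The nearest relatives of 2 hormones were listed as well. ADM, the paralog of ADM2, had 37.9 CPM in parental cells, against 40.3, 71.0 and 124.6 CPM in the clones labelled 1, 5 and 6. STC1, the paralog of STC2, had 71.2 CPM in the parental library and 40.1 to 51.8 CPM in the clones. Neither met the criterion.

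Distances were taken over 10708 genes with counts in all 4 libraries and at least 10 CPM in 1 of them. Outside the 10 genes, the 5 whose 3 clone-to-parental log2 ratios lay closest to the medians of the 10 were ERN1, HCN4, SLC3A2, KCNG1 and IRAK2. The distance is Euclidean over the 3 clones, from 0.248 for ERN1 to 0.618 for IRAK2. ERN1, which encodes the endoplasmic reticulum stress sensor IRE1α, had 104.2 CPM in the parental library and 9.33 to 11.9 CPM in the clones. SLC3A2, the heavy chain of the SLC7A5 and SLC7A11 amino acid carriers, had 1471 CPM in the parental library and 136.6 to 205.8 CPM in the clones. HCN4, nearer than SLC3A2, had 27.9 CPM in the parental library and 2.18 to 3.27 CPM in the clones. KCNG1 had 124.0 CPM against 13.4 to 16.1 CPM, and IRAK2 51.5 CPM against 4.70 to 7.75 CPM.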

How the data were processed

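The authors deposited raw counts per gene for each library, with no normalization, in the form of featureCounts output. The submitters' processing notes name bcl2fastq 2.17, Trimmomatic 0.36, STAR 2.5.2b, featureCounts of Subread 1.5.2, DESeq2 and GRCh38, and the labels name poly(A) selection and a NEBNext Ultra II kit. The annotation release and the strand setting are not given in the sources used here. Reads that overlap genes on opposite strands may therefore be mixed.

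Counts were tested with edgeR 4.0.16 in R 4.3.3 (filterByExpr by group, TMM, glmQLFit, glmQLFTest) with Benjamini-Hochberg adjustment over 22511 genes. The spread came from the 3 clones (2 residual and 2.75 prior degrees of freedom, common dispersion 0.319). CPM were scaled by TMM. Ratios of 1 library to another carry exact 95% Clopper-Pearson intervals, for counting error only, and the floor was 3 counts. The script was tested on simulated data. DESeq2 1.42.0, other scalings, filters and estimators, and leaving out each clone were the alternatives. Python 3.11.15, scipy 1.17.1 and matplotlib 3.10.9 were used for the rest.

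The 10 genes and the lists were chosen with earlier results of these data known. From each list, the genes named are those past the criterion with the largest log2 fold change, at most 4, together with ATF4, DDIT3, CBS, ADM, STC1, SESN1, SESN3 and EIF4EBP2 whatever their values, and genes outside this rule are said to be so or are given as counts. Gene coordinates are those of the deposited files, and sequences come from RefSeq on GRCh38.p14. Values of 1 gene among the markers are not reported here.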

Additional observations from a re-analysis of the deposited data

How the results depend on the processing

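All 9 genes that met the criterion as lower kept their direction and met it in each of the 11 alternatives (another scaling, filter, estimator or tool, or without a clone). VLDLR kept its direction in all 11 and met the criterion in 3, with no filter (1.61), with DESeq2 (1.61) and without clone 1 (1.83). Adjusted calls depended on the method. Of the 10 genes, 0 were under an adjusted p of 0.05 in edgeR, 1 with no filter and 8 with DESeq2, while over all genes 1 was called in edgeR, 6 with no filter, 5 with the bias-adjusted quasi-likelihood and 1095 with DESeq2. The cause of these differences was not tested. Leaving out each clone in turn left 0 genes called in edgeR each time, with fewer samples in the fit. Over the alternatives, the lowest Benjamini-Hochberg adjusted p among the 10 genes lay between 1.03e-26 (ADM2, DESeq2) and 0.720 (edgeR without clone 6). The count of genes higher by the criterion, 955, was 1591 with DESeq2 and ranged from 641 (without clone 6) to 1791 (without clone 1). Upper quartile scaling moved the median of all genes by 0.10 and dropping the filter moved it by 0.21 on the log2 scale. For the lists, 96 of 110 counts stayed within 1.5 times the main count and 14 did not, in alternatives added after the data were seen. No paired analysis was possible because there was only 1 parental library and the labels pair it with no clone. With 1 parental library, the spread among parental cultures is unknown, and FGF21 and ADM2 are limited by 1 to 15 counts in each clone.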

Other observations

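Lists of other stress programs known to act on some of these genes gave further counts. Over all tested genes, 5.34% met the criterion as lower and 4.24% as higher. Of 13 genes of the endoplasmic reticulum chaperone response, 6 met the criterion as lower and 0 as higher, with a median log2 fold change of -0.60. The co-chaperone DNAJB9 had 76.8 CPM in the parental library and 19.8 to 21.4 CPM in the clones (-1.90, SE 0.27), and HERPUD1 (-1.56), HYOU1 (-1.41) and SEL1L (-1.35), which serve protein degradation and folding there, were lower as well. Of 17 p53 targets, a list that also bears on SESN2 and GDF15, 3 met the criterion as lower and 3 as higher, with a median of -0.02. GADD45A (-2.17) and TNFRSF10B (-1.54) were lower, and TP53INP1 (2.93) and TP53I3 (2.57) were higher.

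Of 13 hypoxia targets, only VEGFA met the criterion, which is 7.69% of the list against 9.58% of all tested genes. VEGFA had 1217 CPM in parental cells, against 251.3, 205.1 and 261.6 CPM in the clones labelled 1, 5 and 6 (-2.35, SE 0.32). The count was 5 without clone 1. CA9, a carbonic anhydrase singled out after its values were seen, had 1.60 CPM in parental cells, against 65.7, 0.216 and 0.771 CPM in the clones labelled 1, 5 and 6, so clone 1 stood apart from the other libraries.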
